A study of Mus musculus with 2 samples.

Results

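Transcription factor genes that place cells along the limbs, trunk and head of the embryo, 6 of them T-box and 4 of them homeobox genes, were read in mouse embryonic fibroblasts (MEFs) with and without *BCL11B*. The members are *Tbx2*, *Tbx3*, *Tbx4*, *Tbx5*, *Tbx15*, *Tbx18*, *Shox2*, *Pitx1*, *Meox2* and *Alx1*. They were chosen by symbol, as every probe set that the platform annotation pairs with exactly 1 gene when that gene is one of these 10. This gave 22 of the 34945 probe sets and 10 of the 18193 genes so paired. The study compared primary MEFs of C57BL/6 background from wild type (*BCL11B*+/+) and *BCL11B*-/- embryos at embryonic day 12.5. Both cultures were used at passage 2 and had spent 12 h in a medium that drives adipogenesis (10 μM pioglitazone, 10 μg/ml insulin, 1 μM dexamethasone and 0.5 mM isobutylmethylxanthine), so no untreated cells stand beside them. The deletion is carried by every cell of the embryo and not by a fibroblast lineage alone, and the number, sex and body region of the embryos behind each culture are not given in the sources used here. Each genotype was measured on 1 Affymetrix mouse array with no replicate, so values are compared by size, no p-value is given, and the number of arrays limits the precision.

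T-box proteins are transcription factors that share a DNA-binding domain, the T-box, and bind a short sequence known as the T-box element. *Tbx5* starts the forelimb bud and *Tbx4* acts in the hindlimb bud, where *Pitx1* lies upstream of it and sets hindlimb identity. *Tbx2* and *Tbx3* encode repressors that pattern the limb and the heart, and *Tbx15* and *Tbx18* form a further pair that shapes the skeleton, the dermis, the epicardium and the somites. The homeobox genes *Shox2*, *Meox2* and *Alx1* act in the upper limb segment, in somites and limb muscle, and in the mesenchyme of the face and skull. Fibroblasts keep part of such a position code in culture, and *Tbx15* and *Shox2* are also known as genes that differ between fat depots.

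Of the 10 genes, 9 read higher in *BCL11B*-/- than in *BCL11B*+/+ MEFs, against 48.8% of counted genes higher by any amount, and *Tbx15* read lower, against 48.5%. The other 2.66% of counted genes were equal on both arrays. The brightest probe set by the mean of both arrays stood for a gene, and all 10 genes had such a mean of at least 5 log2 units, the level above which a gene was counted. *Alx1* reached that level only through the *BCL11B*-/- array, so it had to differ to be counted. On the log2 scale the 9 higher genes differed by 0.33 to 1.56, and all but *Alx1* lay between 1.25- and 1.497-fold. At a rule of 1.5-fold 1 member was higher and the other 9 stayed short of it in either direction, against 1.61% of 12331 counted genes that were higher and 1.75% that were lower. At 1.2-fold 9 members were higher and 1 was lower, against 8.81% and 7.80% of counted genes, and at 2-fold *Alx1* alone was higher, against 0.349%. The members' median difference was 0.44, beside a median of 0 over all counted genes. The members were chosen with earlier results of these arrays known, so these counts describe them and are not evidence of a direction.

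**Figure D1:**
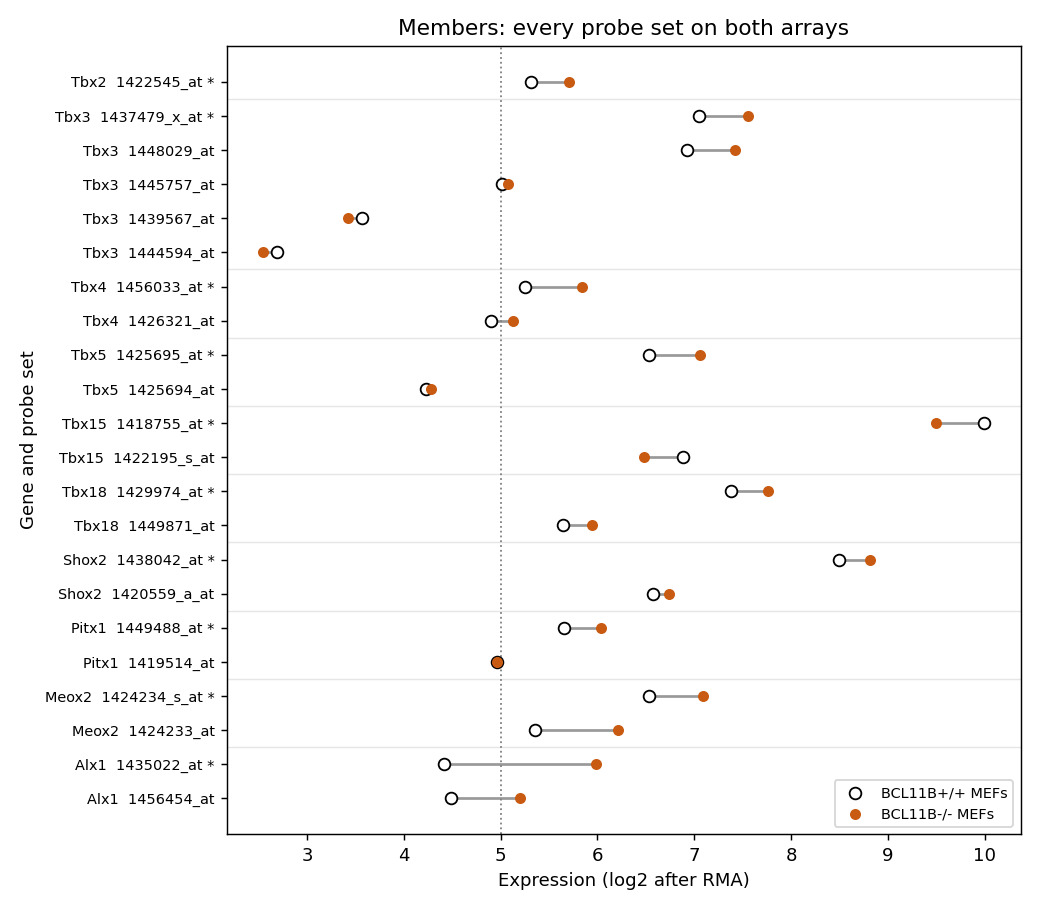
Level on every probe set of the 10 genes (vertical axis) as log2 expression (horizontal axis), where open circles are the *BCL11B*+/+ and orange circles the *BCL11B*-/- array. There was 1 array for each, so no error bars are shown. An asterisk marks the probe set with the highest mean of each gene, the dotted line is the level of 5 above which genes were counted, and the orange circle lies to the left on both *Tbx15* probe sets and on the 2 dimmest of *Tbx3*.

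Repeat readings exist for all members but *Tbx2*, since a gene can have several probe sets on the array. These read the same RNA, so they show how far the measurement of 1 gene varies and are not replicates of a genotype. Of the 22 probe sets 17 were higher in *BCL11B*-/- MEFs, 4 were lower and 1 was equal. Among the 17 with a mean of at least 5, 15 were higher and 2 were lower, and those 2 were both of *Tbx15*. The 5 dimmer ones were split, with 2 higher, 2 lower and 1 equal. *Tbx3* alone holds 5 of the 22. The share of all probe sets that were higher was not computed, so these counts describe the members only. As a technical yardstick, the scatter of probe sets with a mean of at least 5 around their gene's own mean difference was taken. It had an SD of 0.145 log2 units, pooled from 5543 genes. On the brightest probe set of each gene the members' differences were all larger in size than that, the smallest being 2.24 of these SDs for *Shox2*. Some dimmer probe sets of *Tbx3*, *Tbx5* and *Pitx1* differed by less than the SD, and that of *Shox2* by 0.17. That SD holds no variation between cultures and leaves out probe sets under 5. The 2 probe sets of *Alx1*, at 1.56 and 0.71, and of *Tbx5*, at 0.53 and 0.046, lay farther apart than it. So did those of *Tbx4*, *Meox2*, *Pitx1* and *Shox2*, and the bright and dim ones of *Tbx3*. Only those of *Tbx15* and of *Tbx18* lay closer together.

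The 2 T-box genes of limb identity were both higher. On its brighter probe set *Tbx5* read 6.53 in *BCL11B*+/+ and 7.06 in *BCL11B*-/- MEFs, a log2 difference of 0.53 or 1.45-fold. Its dimmer probe set read 4.23 and 4.28, under the level of 5, and differed by 0.046. *Tbx4* read 5.25 and 5.84, a difference of 0.582 against the 0.585 that 1.5-fold requires, so it stopped just short of that rule. The forelimb and the hindlimb gene differed in the same direction, by amounts closer together than the SD between probe sets of 1 gene. A second probe set of *Tbx4* read 4.90 and 5.13 with a difference of 0.23. *Pitx1*, the hindlimb gene upstream of *Tbx4*, read 5.66 and 6.03, which is 1.30-fold higher with a difference of 0.38. Its other probe set read 4.96 on both arrays. Such ties are a feature of the table, in which 2971 of 45101 probe sets, or 6.59%, hold the same value for both genotypes. Their cause was not tested, and this dimmer probe set does not show the rise of the brighter one.

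The repressor genes *Tbx2* and *Tbx3* were higher as well. *Tbx3*, which in the limb marks the anterior and posterior margins, read 7.05 in *BCL11B*+/+ and 7.55 in *BCL11B*-/- MEFs, a difference of 0.50. This probe set carries the suffix _x, which marks probes that may bind other transcripts. A second one without any suffix read 6.93 and 7.42 and differed by 0.49, so the reading did not rest on the suffixed probe set. The other 3 probe sets of *Tbx3* were dim and differed by 0.058, −0.15 and −0.14, at levels of 5.07 or less on either array. *Tbx2*, which with *Tbx3* is known to repress cell cycle inhibitor genes, has a single probe set that read 5.32 and 5.70, which is 1.31-fold higher. It is the member with no repeat reading.

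*Tbx15* and *Tbx18* are each other's closest relatives among the members, and they differed in opposite directions. *Tbx15*, a gene of dermis, skeleton and subcutaneous fat, read 10.00 in *BCL11B*+/+ and 9.50 in *BCL11B*-/- MEFs, which is 1.41-fold lower. A second probe set read 6.88 and 6.48, so both gave a lower value, with differences of −0.50 and −0.41. *Tbx18*, a gene of the epicardium and of limb and somite mesenchyme, read 7.38 and 7.76 on its brighter probe set, a difference of 0.38. Its second probe set read 5.64 and 5.95 with a difference of 0.30. All 4 probe sets of this pair had a mean above 5, and the opposite direction held on each of them.

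The largest difference among the members was that of *Alx1*, a paired-type homeobox gene of the cranial and limb mesenchyme. It read 4.42 in *BCL11B*+/+ and 5.98 in *BCL11B*-/- MEFs, a difference of 1.56 or 2.95-fold, which placed it 7th from the top of the 12331 counted genes. A second probe set read 4.49 and 5.20, a difference of 0.71. Both readings in *BCL11B*+/+ MEFs lay under 5, where background holds much of the signal, and the 2 probe sets differed in the size of the change while sharing its direction. *Meox2*, a homeobox gene of somites and of growth arrest in mesenchymal cells, read 6.54 and 7.09 on its brighter probe set, which is 1.47-fold higher with a difference of 0.55. Its dimmer probe set read 5.36 and 6.21, a difference of 0.85 that is past 1.5-fold. *Meox2* is therefore past the rule or short of it depending on which probe set stands for it. *Shox2*, a gene of the upper limb segment and the sinoatrial node, read 8.49 and 8.82, a difference of 0.33, and 6.57 and 6.74 on its other probe set, a difference of 0.17. It had the smallest difference of the 10 members.

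By the plain log2 difference *Tbx4*, *Meox2*, *Tbx5* and *Tbx3* stood at places 200, 232, 266 and 304 from the top of the counted genes. *Tbx2*, *Tbx18*, *Pitx1* and *Shox2* stood at places 527, 540, 557 and 747. *Tbx15* was 291st from the bottom. The 6 T-box members had a median difference of 0.44 and the 4 homeobox members one of 0.46. The levels of different genes are not set in order here, because the brightness of a probe set depends on its probes. The share of all counted genes at least 1.2-fold higher was between 7.57 and 11.2% at each level from 5 to 10 log2 units, the range that holds the members.

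**Figure D2:**
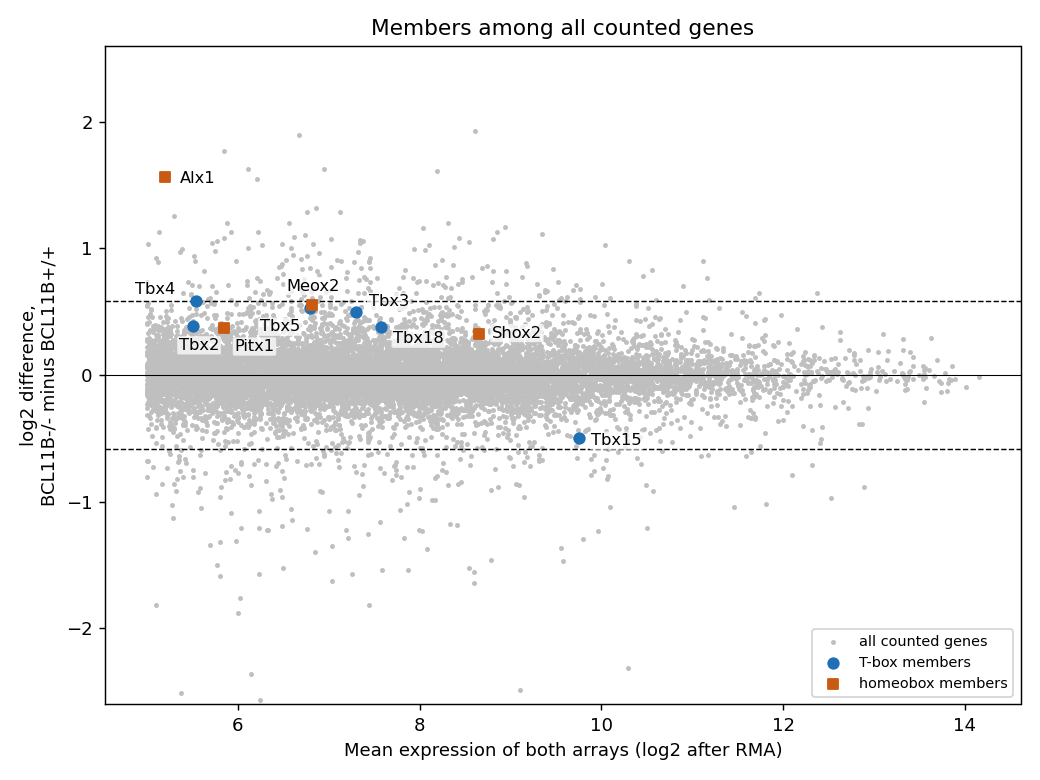
*BCL11B*-/- minus *BCL11B*+/+ log2 difference (vertical axis) against the mean of both arrays (horizontal axis, log2) for the 12331 counted genes (grey points), with T-box members as blue circles and homeobox members as orange squares. Dashed lines mark 1.5-fold and 1 gene lies outside the vertical range of 2.6 in either direction. *Alx1* at 1.56 is the member farthest from 0 and *Tbx15* at −0.50 is the only one below it.

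Of the members, 4 form neighbouring pairs in the mouse genome, *Tbx2* with *Tbx4* and *Tbx3* with *Tbx5*, as they do in other mammals. *Tbx2* and *Tbx4* differed by 0.38 and 0.58, and *Tbx3* and *Tbx5* by 0.50 and 0.53, so both genes of each pair were higher. The genes that flank the pairs differed less. *Bcas3* before *Tbx2* and *Brip1*, a DNA helicase gene, after *Tbx4* differed by 0.096 and −0.079. *Med13l*, a Mediator subunit gene, before *Tbx3* and *Rbm19* after *Tbx5* differed by 0.097 and −0.087. On these brightest probe sets the 4 differences lie within the SD of 0.145 between probe sets of 1 gene. A dimmer probe set of *Med13l* read 5.26 and 5.64, a difference of 0.38 that is outside it.

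Around the other members some of the nearest counted genes differed by more and others did not, and all were looked at after the members' values had been seen. The gene after *Alx1* was *Slc6a15*, an amino acid transporter gene, which read 4.88 in *BCL11B*+/+ and 5.88 in *BCL11B*-/- MEFs, a difference of 1.00. It has 1 probe set, and 2 protein-coding genes between it and *Alx1* were not counted. Like *Alx1*, *Slc6a15* reached a mean of 5 only through the *BCL11B*-/- array, so it had to differ to be counted. The gene before *Meox2* was *Sostdc1*, a secreted BMP and Wnt antagonist gene, which read 6.64 and 5.32, a difference of −1.31 that is opposite to *Meox2*. A second probe set of *Sostdc1* differed by −0.56. *Nt5e*, the CD73 gene, after *Tbx18* read 7.24 and 6.64 with a difference of −0.60, also opposite to its neighbour, while its other 2 probe sets differed by −0.24 and 0. *Ptx3*, a long pentraxin gene before *Shox2*, differed by 0.50. The genes on either side of *Tbx15*, *Wars2* and *Wdr3*, differed by 0.19 and −0.32, and those beside *Pitx1*, *Pcbd2* and *Macroh2a1*, by 0.15 and 0.012. A second probe set of *Wars2* read 6.32 and 6.03 and differed by −0.28, so its direction is not settled. *Mgat4c* before *Alx1* differed by 0.20, *Cep162* before *Tbx18* by −0.069, *Rsrc1* after *Shox2* by −0.15 and *Ifrd1* after *Meox2* by −0.17. A dimmer probe set of *Rsrc1*, under 5 on both arrays, read 4.21 and 4.92 and differed by 0.71. Of 16 distinct neighbours that are not members, 3 were past 1.5-fold in either direction on their brightest probe sets, *Slc6a15* among them, against 3.36% of counted genes. The median of the 16 was −0.028.

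**Figure D3:**
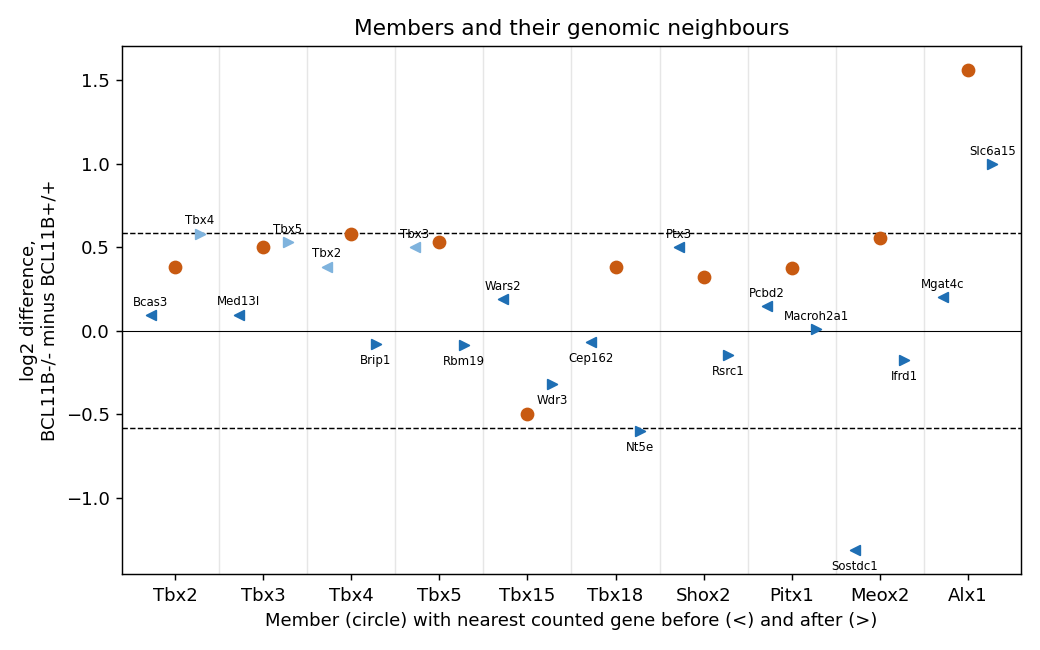
*BCL11B*-/- minus *BCL11B*+/+ log2 difference (vertical axis) for each member (orange circles) and its nearest counted protein-coding gene before (left-pointing) and after it (right-pointing) in RefSeq order (horizontal axis by member). Light blue triangles are themselves members and dashed lines mark 1.5-fold. *Slc6a15* at 1.00 lies on the side of *Alx1*, and *Sostdc1* at −1.31 and *Nt5e* at −0.60 lie opposite to *Meox2* and *Tbx18*.

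Promoter sequence was at hand for 4 members, *Tbx4*, *Tbx18*, *Shox2* and *Meox2*, which were all higher in *BCL11B*-/- MEFs. Each sequence runs from 250 bases before to 50 bases after a RefSeq start on build GRCm38.p6, and that of *Tbx4* belongs to a start inside the gene and not to its outermost one. The 3 shown here are those that hold a match to any of the motifs searched, with the matches in capitals. The *Tbx4* stretch is chr11:85896515-85896814 on the plus strand, that of *Shox2* chr3:66981722-66982021 on the minus strand and that of *Meox2* chr12:37108290-37108589 on the plus strand.
Tbx4: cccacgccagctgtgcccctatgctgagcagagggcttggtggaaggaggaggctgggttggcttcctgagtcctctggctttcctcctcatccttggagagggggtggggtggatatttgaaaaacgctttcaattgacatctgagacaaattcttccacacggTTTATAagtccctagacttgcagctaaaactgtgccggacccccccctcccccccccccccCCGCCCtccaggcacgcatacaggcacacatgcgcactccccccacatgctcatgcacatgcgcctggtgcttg
Shox2: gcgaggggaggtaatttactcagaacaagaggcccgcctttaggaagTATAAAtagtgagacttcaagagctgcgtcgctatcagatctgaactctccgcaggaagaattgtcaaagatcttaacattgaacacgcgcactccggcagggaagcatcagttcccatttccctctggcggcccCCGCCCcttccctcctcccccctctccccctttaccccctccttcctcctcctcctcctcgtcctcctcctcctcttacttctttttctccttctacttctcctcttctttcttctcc
Meox2: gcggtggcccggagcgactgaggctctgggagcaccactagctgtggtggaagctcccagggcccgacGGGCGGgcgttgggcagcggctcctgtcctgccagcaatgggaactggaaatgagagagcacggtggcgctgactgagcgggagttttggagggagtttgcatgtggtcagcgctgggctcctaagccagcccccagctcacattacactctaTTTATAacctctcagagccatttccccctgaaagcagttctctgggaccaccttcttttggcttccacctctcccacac

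A set of 5 motifs was searched on both strands, and none of their matches in these sequences overlapped another. The GC box GGGCGG, which is of interest because BCL11B is known to bind GC-rich DNA, was found once each in *Tbx4*, *Shox2* and *Meox2*, and 35.7% of 32851 promoters of the same length hold it. The TATA box TATAAA was found once each in the same 3 genes, against 13.6% of promoters. Relative to the start the TATA match begins at position −29 in *Meox2*, −85 in *Tbx4* and −203 in *Shox2*. In the sequences as printed the match reads TATAAA in *Shox2* and as its reverse complement TTTATA in *Meox2* and *Tbx4*. The T-box half-site GGTGTGA, the homeodomain core TAATTA and the bicoid-type site GGATTA, which PITX proteins bind, were in none of the 4, against 3.98%, 5.29% and 7.06% of promoters. The sequence of *Tbx18* held none of the 5. GC content was 59.0% for *Tbx4*, 51.7% for *Tbx18*, 53.3% for *Shox2* and 60.7% for *Meox2*, and the median over all promoters was 52.7%. A match is a description of these letters and not a binding site.

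Related genes outside the 10 were set beside them. Only 2 other T-box genes were counted, *Mga*, which encodes a MAX partner, with a difference of 0.13, and *Tbx1*, a gene of the pharyngeal arches, with −0.069. A further 7 T-box genes in the annotation were under 5. Among homeobox relatives of *Shox2*, *Pitx1*, *Meox2* and *Alx1*, 6 genes were counted and none was at 1.5-fold. All 6 were above 0, with a median of 0.20, from *Pitx3* at 0.033 to *Prrx1*, a general limb mesenchyme gene, at 0.26. *Alx4*, the closest relative of *Alx1* in the annotation, read 4.37 in *BCL11B*+/+ and 4.44 in *BCL11B*-/- MEFs, both under 5, where a difference is hard to detect. Under 5 on both arrays but further apart were *Uncx*, a somite gene, with 4.01 and 4.85, and *Gsc*, the goosecoid gene, with 4.14 and 4.95, differences of 0.84 and 0.81 that were not counted.

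Other limb bud genes were mixed. Of 19 counted transcription factors of the limb bud and limb girdle 2 passed 1.5-fold upward and 17 stayed short of it in either direction, with a median of 0.12. The 2 were *Dlx5*, a homeobox gene of limb ectoderm and bone, which read 5.66 and 6.79 with a difference of 1.13, and *Msx2*, a BMP-responsive homeobox gene, with 0.70. A dimmer probe set of *Msx2*, under 5 on both arrays, differed by −0.079. The lowest of the 19 was *Irx5*, a gene of the proximal and anterior limb, with −0.46. Of 18 counted limb bud signals 2 were higher, 1 was lower and 15 were neither, with a median of 0.18. *Rspo2*, an R-spondin gene needed for limb outgrowth, differed by 1.05 and *Fgf7* by 0.71. A dimmer probe set of *Rspo2* differed by 0.048. *Cyp26b1*, which encodes the enzyme that breaks down retinoic acid in the distal limb, read 7.80 in *BCL11B*+/+ and 6.58 in *BCL11B*-/- MEFs, a difference of −1.23. *Fgf10*, the limb growth factor gene that *Tbx5* and *Tbx4* are known to activate, read 7.09 and 7.06 and differed by −0.036. Its value stands beside differences of 0.53 and 0.58 for the 2 T-box genes.

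Genes of the head mesenchyme and the somites were mixed as well. Of 11 counted craniofacial factors 2 were higher and none was lower, with a median of 0.27. *Foxd1*, a forkhead gene of facial and kidney mesenchyme, read 7.46 and 8.62 with a difference of 1.16, and *Foxf1* differed by 0.64 on its brighter probe set and by 0.044 on the other. Among 6 counted somite genes *Foxc2* and *Foxc1* were higher with 1.06 and 0.99, and *Sim1* was lower with −0.93, which left 3 that were neither. The median of the 6 was 0.18. A dimmer probe set of *Sim1* differed by −0.14. *Alx1*, *Foxd1*, *Foxc1* and *Foxc2* are all known from cranial mesenchyme, and they were put side by side here after their values had been seen. They do not stand for such genes as a set. Of the 11 craniofacial factors 9 were above 0 and 2 were below it, *Lhx8* with −0.22 and *Dlx3* with −0.11.

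*Tbx15* and *Shox2* also belong to the genes that differ between fat depots. Of 10 other counted depot genes 2 were higher, 1 was lower and 7 were neither, with a median of −0.083. *Nr2f1*, which encodes COUP-TFI, read 8.30 in *BCL11B*+/+ and 9.17 in *BCL11B*-/- MEFs with a difference of 0.86, and *Hoxa5* differed by 0.85. *Hoxc8* differed by −0.61. In the HoxC cluster, whose 6 measured genes had a median of −0.15, the forelimb level genes *Hoxc4* and *Hoxc5* differed by 0.061 and 0.18, *Hoxc6* by −0.046 and the more posterior *Hoxc9* and *Hoxc10* by −0.39 and −0.25. Of 8 counted genes reported as targets of T-box factors or their partners 1 was higher, *Nppa*, the atrial natriuretic peptide gene that *Tbx5* activates and *Tbx2* and *Tbx3* repress, with 6.82 and 7.87 and a difference of 1.05. The list's median was 0.17. *Cdkn2a* and *Cdkn1a*, cell cycle inhibitor genes that *Tbx2* and *Tbx3* are known to repress, differed by 0.39 and 0.25. Of the 8 targets 3 were below 0, *Gata6* with −0.32, *Ndrg1* with −0.28 and *Gja1*, the connexin 43 gene, with −0.11.

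**Figure D4:**
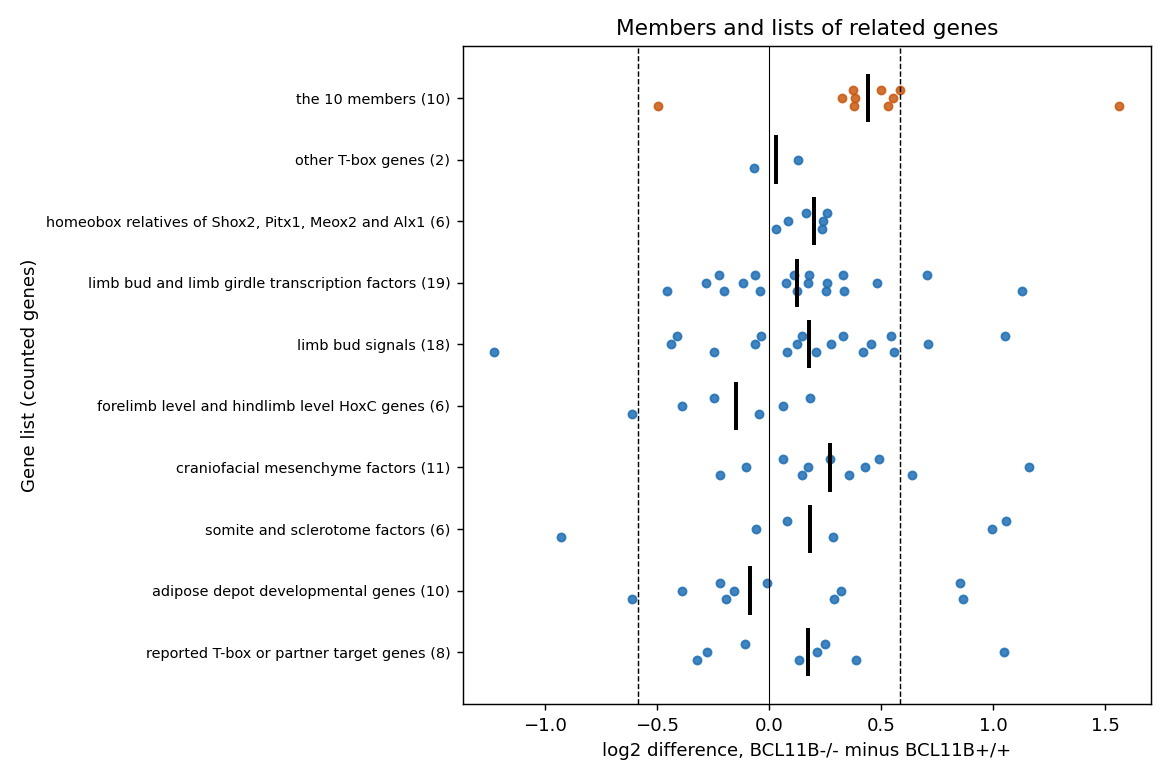
*BCL11B*-/- minus *BCL11B*+/+ log2 difference (horizontal axis) of the 10 members (orange) and for counted genes of 9 related lists (blue, number of genes in brackets on the vertical axis), with 1 array per genotype. Black bars are medians and dashed lines mark 1.5-fold. At this choice of probe set and level the members' median of 0.44 lies to the right of the other medians shown, which run from −0.15 to 0.27. It does not when all probe sets are averaged or a mean of at least 7 is required, and a few genes stand in more than 1 list. Among marker lists not shown, those of neural and chondrocyte cells had higher medians, 0.447 and 0.97.

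The cultures differed in more than the targeted gene. *Bcl11b* itself was lower on each of its 4 probe sets, and its brightest one read 8.77 on the *BCL11B*+/+ and 7.397 on the *BCL11B*-/- array, while the deleted part of the gene is not given in the sources used here, so its signal does not check the genotype fully. Fibroblast markers were bright on both arrays, with all 9 measured genes at 10.07 or more, though 7 of the 9 were below 0 and 2 were lower past 1.5-fold, *Dcn* with −0.88 and *Thy1* with −0.65. Macrophage markers were lower past 1.5-fold for 10 of 11 genes, with a mean level of 8.06 on the *BCL11B*+/+ and 7.32 on the *BCL11B*-/- array. The lowest were *Laptm5*, *Tyrobp* and *Lyz2* with −0.95, −0.92 and −0.92. The other probe sets of *Laptm5*, all dimmer, differed by −0.39 to 0.040. Of 6 counted chondrocyte genes 5 were higher, led by *Comp*, *Col2a1* and *Hapln1* with 1.63, 1.29 and 1.03, and the mean level was 6.94 and 7.93. Of 6 mesothelial genes 2 were lower, *Lrrn4* with −0.62 and *Gpm6a* with −0.61, and the mean level was 8.76 and 8.40. *Xist*, the RNA of the inactive X chromosome, read 10.80 and 4.80, and 3 Y-linked genes were higher in *BCL11B*-/- MEFs, so markers of sex differ between the cultures. The part of cell makeup, of sex and of the body region from which the cells came in the members' differences was not tested, and with 1 culture per genotype none of them can be told apart from the genotype. In such bulk RNA fewer cells of a type and less RNA per cell cannot be told apart either.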

How the data were processed

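Total RNA of *BCL11B*+/+ and *BCL11B*-/- MEFs, 1 culture each, was amplified from 100 ng, biotinylated and hybridized to 1 Affymetrix Mouse Genome array per genotype by the authors. They summarised the scans by the robust multi-array average (RMA), and the submitters' processing notes name R 3.0.3. The deposited log2 values are thus background-corrected, quantile-normalized and merged per probe set, so a change in total mRNA would not be seen and differences of dim genes are pulled toward 0. A genome build for the array is not given in the sources used here, and RefSeq of GRCm38.p6 was used for gene order and promoters alone.

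The table held 45101 probe sets, 64 of them controls. Leaving out controls, 34945 were paired with 1 gene, 932 with several and 9160 with none. The probe set with the highest mean stood for a gene, genes whose mean reached 5 were counted, and 1.5-fold was the size rule. There were no replicates, so genotypes were compared by size alone, without p-values. No paired analysis was possible because each genotype has 1 array. Alternatives were other choices of probe set, level and fold, a loess fit (span 0.4) or the median subtracted, and the weighted average difference, the study's ranking, which multiplies a difference by relative expression. The rule was also tested on simulated data with planted changes.

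The members and lists were chosen with earlier results of these data known. All members were named, and of each other list the genes past 1.5-fold (at most 3 in each direction) or its extremes. Other genes, the genomic neighbours among them, were named after their values were seen. The remaining marker lists are given by counts without names, and those of cardiac and smooth muscle, epithelial, endothelial and neural cells had 3, 0, 0 and 2 genes higher and 3, 0, 0 and 0 lower of 7, 5, 1 and 5 counted. Tools were Python 3.11.15, pandas 2.3.3, numpy 2.4.6, matplotlib 3.10.9 and statsmodels 0.14.6.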

Additional observations from a re-analysis of the deposited data

How the results depend on the processing

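With 1 array per genotype no array could be left out, and no paired analysis was possible because there is a single pair of arrays. Of 50 alternative values of the members' differences 42 moved by less than 0.145 log2 units, the SD between probe sets of 1 gene. The other 8 moved by more, and none changed sign. Many of the 50 could hardly move. The subtracted median was 0, *Tbx2* has 1 probe set, and other choices often picked the same probe set. The 42 are therefore not a measure of stability. As the mean over all probe sets *Tbx3* was 0.15, *Tbx4* 0.41, *Tbx5* 0.29, *Pitx1* 0.19, *Meox2* 0.70 and *Alx1* 1.13, since dim probe sets enter that mean. *Meox2* was 0.85 without suffixed probe sets and on the probe set with the largest difference. In each of these 3 settings 2 members were at least 1.5-fold higher, *Alx1* and *Meox2*. With a mean of at least 7 only *Tbx3*, *Tbx15*, *Tbx18* and *Shox2* remained and no member was, since 1.5-fold was reached below that level only. At 1.2-fold and the main level of 5, 9 members were higher and 1 was lower. Over all genes 1086 were higher and 962 lower at 1.2-fold, 43 and 62 at 2-fold, and 112 and 124 with a mean of at least 7. The loess fit lay between −0.0085 and 0.020 and the median difference was 0, so neither scaling turned a member. For the weighted average difference the probe set with the largest weighted value stood for a gene, and genes under 5 were ranked too. A change of rank there is thus not an effect of the weighting alone. By the weighted average difference, over all 18193 genes, *Alx1* was 64th from the top in place of 7th, *Tbx4* 662nd in place of 200th, *Tbx5* 425th in place of 266th, *Pitx1* 1273rd in place of 557th and *Tbx2* 1412th in place of 527th, and *Tbx15* 192nd from the bottom in place of 291st.

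Among 132 recomputed medians of lists 121 stayed within 0.145 of the main one. Those with the loess fit or the median subtracted could hardly move. With a mean of at least 7 medians were −0.042 for limb bud transcription factors, 0.39 for limb bud signals, 1.03 for somite genes, 0.77 for chondrocyte, −0.061 for cardiac and smooth muscle and 0.055 for neural markers. At that level *Foxc1* and *Foxc2* alone stood for the somite genes, *Col11a1* and *Sox9* for the chondrocyte and *Nes* for the neural markers. Those medians therefore do not describe whole lists. As the mean over all probe sets the medians were 0.55 for somite genes, −0.64 for macrophage and 0.80 for chondrocyte markers, and with no filter 0.64 for chondrocyte markers. The members' median was 0.35 with a mean of at least 7, below those of limb bud signals and somite genes, and 0.31 as the mean over all probe sets, below 0.34 for craniofacial factors and 0.55 for somite genes. The median of the sex-linked genes, main value 0.89, was −2.73 as the mean over all probe sets, where *Xist* and *Eif2s3y* alone were counted. Apart from the stricter or looser thresholds, the cause of these changes was not tested. The low signal of *Alx1* in *BCL11B*+/+ MEFs and of most *Tbx3* probe sets limits what their values can show.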
